A study of Mus musculus with 4 samples.

Results

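CD73, the enzyme that makes adenosine outside the cell, is encoded by Nt5e, and it was examined here with 7 further genes of adenosine handling in mouse mammary cells treated with baicalin, a flavonoid of Scutellaria root. The 8 genes, chosen by gene symbol from the expression table, were Nt5e, Entpd1, Ada, Adk, Adora1, Adora2a, Adora2b and Slc29a1. They are 8 of 54446 genes in the table and 8 of the 17787 genes with a value above 0 in all 4 libraries. The list was drawn up with the values of these same 4 libraries in view, so the levels and changes of the 8 genes are given as a description, with no test.

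Extracellular ATP is cut to AMP by surface enzymes such as CD39, the product of Entpd1, and CD73 then cuts AMP to adenosine. Adenosine signals through G protein-coupled receptors, of which that encoded by Adora1 lowers cyclic AMP and those encoded by Adora2a and Adora2b raise it, or it enters cells through equilibrative transporters such as ENT1, the product of Slc29a1. Inside the cell adenosine kinase, the product of Adk, returns it to AMP, and adenosine deaminase, the product of Ada, converts it to inosine. CD73 is also widely used as a surface marker of mesenchymal and some epithelial cells.

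The study asked how baicalin alters gene expression in the basal and luminal layers of the mammary epithelium. The mice were wild-type C57BL/6, and the methods name females of 6 to 9 weeks, or of other stages where specified, as the source of mammary glands. Epithelial cells were sorted by surface CD24 and CD29 after labelling of CD31, CD45 and TER119. The sorted cells grew in growth factor-reduced Matrigel under a medium with EGF and an insulin, transferrin and selenium supplement, and all 4 cultures shared these conditions. The 4 groups were cells labelled basal with DMSO, cells labelled basal with 100 μM baicalin, cells labelled luminal with DMSO and cells labelled luminal with 100 μM baicalin, with 1 library each. The DMSO concentration, the time of harvest and the number of mice behind a culture are not given in the sources used here. With 1 library per group there are no replicates, so no spread between cultures is known and no p-value is given. RNA was selected with oligo (dT), and expression is in FPKM, which divides the fragments of a gene by its exon length and by library depth. The values resolved into whole fragments, 19356094 to 20648781 per library, and each ratio below carries an exact Clopper-Pearson 95% interval from those fragments, which covers counting error only.

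The labels did not match the markers of the 2 cell layers. The 10 basal markers summed to 1761 FPKM in the library labelled basal with DMSO and 479 FPKM in the library labelled basal with baicalin, but to 5404 and 7199 FPKM in the libraries labelled luminal with DMSO and baicalin. Krt5, the basal keratin, was at 128, 3.01, 2015 and 2415 FPKM in the same order. The 10 luminal epithelial markers summed to 4413, 3060, 1271 and 1075 FPKM. All 10 basal markers were higher, and all 10 luminal markers lower, in the libraries labelled luminal under both treatments. The groups are therefore called by their labels throughout, and a difference between labels is not a statement about basal or luminal cells. In these bulk libraries, fewer cells of a type and less RNA per cell cannot be told apart.

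Nt5e (ENSMUSG00000032420) lies at chr9:88327197-88372092 on the plus strand of GRCm38, with 9 exon blocks and 8602 bases of exon. Slc29a1 (ENSMUSG00000023942) lies at chr17:45585200-45599606 on the minus strand, with 16 exon blocks and 4008 bases of exon. They were the 2 most abundant genes of the list in every library and those on which the results turn, and their promoters, from 250 bases before to 50 bases after an annotated start, are shown here from RefSeq on GRCm38.p6. The Nt5e window is chr9:88327359-88327658 on the plus strand, and the Slc29a1 window, the outermost of 8 for that gene, is chr17:45599569-45599868 on the minus strand. The RefSeq start behind the Nt5e window differs from the start of the gene model above, at base 88327197. The whole Nt5e window lies after that base, and the sequence before it was not searched. Capitals mark matches to the motifs named after the sequences, read on either strand, and adjoining matches run together.
Nt5e: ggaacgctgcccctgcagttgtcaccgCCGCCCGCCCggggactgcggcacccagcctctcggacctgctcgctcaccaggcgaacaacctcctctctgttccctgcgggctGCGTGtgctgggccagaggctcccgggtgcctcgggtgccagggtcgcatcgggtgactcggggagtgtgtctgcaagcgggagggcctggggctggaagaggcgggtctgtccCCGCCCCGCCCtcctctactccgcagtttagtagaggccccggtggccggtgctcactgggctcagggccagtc
Slc29a1: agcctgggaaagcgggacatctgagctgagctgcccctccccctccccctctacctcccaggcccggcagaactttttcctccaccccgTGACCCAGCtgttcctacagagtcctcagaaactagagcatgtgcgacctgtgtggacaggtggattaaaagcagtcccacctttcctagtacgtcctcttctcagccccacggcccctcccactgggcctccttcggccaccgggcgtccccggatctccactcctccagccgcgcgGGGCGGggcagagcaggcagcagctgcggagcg

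Both strands were searched for the hypoxia response element cores ACGTG and GCGTG, the second of which is also the xenobiotic response element core. The cAMP response element was written as TGACGTCA. The AP-1 site was written as TGANTCA. The antioxidant response element core was written as TGACNNNGC. The GC box was written as GGGCGG. The TATA box was written as TATAAA. The Nt5e window held 4 GC boxes, at positions -223, -219, -24 and -19 relative to the start, of which neighbours overlap, and 1 GCGTG at position -138. A GC box was present in 35.7% of all 32851 windows of this length and GCGTG in 32.4%. The Slc29a1 window held 1 antioxidant response element core at position -161, a motif found in 12.4% of windows, and 1 GC box at position 17. Neither window shown held ACGTG, present in 19.6% of windows, a cAMP response element, present in 1.79%, an AP-1 site, present in 7.81%, or a TATA box, present in 13.6%. Among the Slc29a1 windows not shown, ACGTG was present in chr17:45597102-45597401, chr17:45595481-45595780 and chr17:45595197-45595496, and absent from the rest. The Nt5e window had a GC content of 71% and 23 CpG, and the Slc29a1 window 65% and 16 CpG, against medians of 52.7% and 7 CpG over all windows. These matches describe the letters of the windows only. Windows were matched for 7 of the 8 genes, all but Adora2a.

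Nt5e was lower with baicalin under the basal label and higher with baicalin under the luminal label. Its level was 54.8 FPKM in the library labelled basal with DMSO, 26.3 FPKM in the library labelled basal with baicalin, 14.5 FPKM in the library labelled luminal with DMSO and 39.8 FPKM in the library labelled luminal with baicalin. These levels rest on 9352, 4580, 2411 and 7076 fragments. The highest and the lowest level were therefore both in DMSO libraries, and the baicalin libraries lay between them. Of the genes with a value above 0 in all 4 libraries, Nt5e stood above 95.7%, 89.1%, 79.2% and 93.8% in the same order.

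With baicalin, the Nt5e level was 0.479 times that with DMSO in the libraries labelled basal (0.463 to 0.497), a log2 difference of -1.03 with 1 FPKM added to each value. In the libraries labelled luminal it was 2.75 times as high (2.63 to 2.88), a log2 difference of 1.40. The 2 log2 differences lay 2.43 apart, and the ratio of the 2 ratios was 5.74 (95% Wald interval 5.41 to 6.08, counting error only). A larger gap in that direction was seen for 68 of the 17787 genes. Between labels, Nt5e in the luminal library was 0.264 times the basal level with DMSO (0.253 to 0.277), a log2 difference of -1.85. With baicalin it was 1.52 times the basal level (1.46 to 1.58), a log2 difference of 0.58. The order of the labels was thus reversed between the treatments. All 6 pairs of libraries differed beyond counting error for Nt5e, down to the closest pair, the library labelled luminal with baicalin at 0.727 times the library labelled basal with DMSO (0.705 to 0.750).

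**Figure D1:**
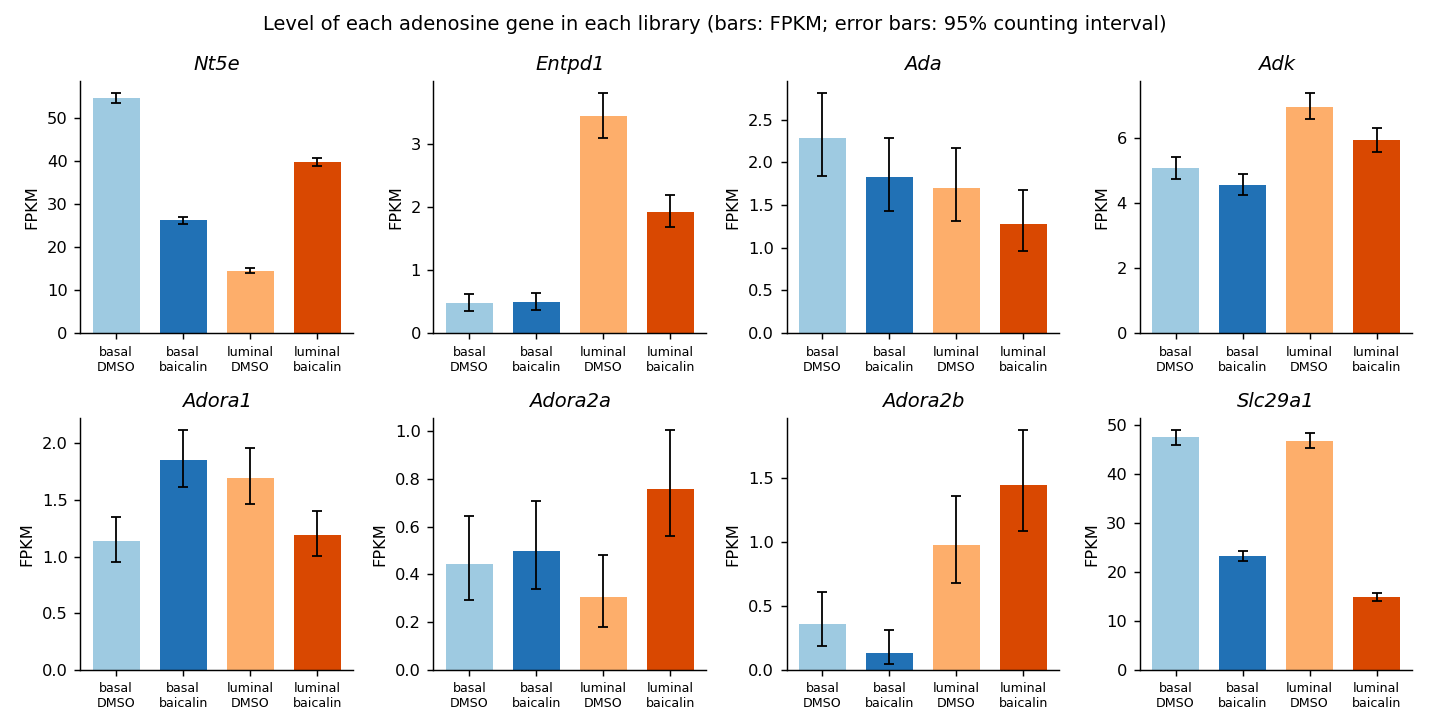
Level of each of the 8 adenosine genes in the 4 libraries, with FPKM on the vertical axis of each panel, starting at 0. Bars are single libraries and error bars are exact 95% counting intervals. Nt5e runs from 14.5 to 54.8 FPKM with both extremes in DMSO libraries, and Slc29a1 is lower with baicalin under both labels.

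Slc29a1, which encodes the transporter ENT1, was the other abundant gene of the list. It was at 47.6 FPKM in the library labelled basal with DMSO and 23.2 FPKM with baicalin, and at 46.8 FPKM in the library labelled luminal with DMSO and 14.8 FPKM with baicalin. Both DMSO libraries were above both baicalin libraries. The DMSO libraries could not be ordered, since their ratio of luminal to basal label was 0.985 (0.940 to 1.03). The baicalin level was 0.489 times the DMSO level under the basal label (0.462 to 0.517) and 0.316 times under the luminal label (0.296 to 0.338). The log2 differences were -1.002 and -1.60, so that the first only just passed the threshold of 1. The ratio of the 2 ratios was 0.648 (0.595 to 0.705), so the ratio was lower under the luminal label beyond counting error. With baicalin the library labelled luminal was at 0.638 times the library labelled basal (0.593 to 0.685). Gm17080, an antisense gene that shares 275 of the 4008 exon bases of Slc29a1, was listed at 0 in 3 libraries and at 0.0597 FPKM in the library labelled luminal with baicalin.

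Read against all genes, 2 of the 8 genes, Nt5e and Slc29a1, were lower with baicalin by more than 1 on the log2 scale under the basal label, where 3.33% of the 17787 genes were, and 0 of 8 were higher, where 2.15% were. Under the luminal label 1 of 8 was higher, Nt5e, where 2.37% of genes were, and 1 of 8 was lower, Slc29a1, where 1.59% were. Nt5e was 1 of 40 genes, or 0.225%, that were lower under the basal label and higher under the luminal label, both by more than 1. Slc29a1 was 1 of 81 genes, or 0.455%, that were lower by more than 1 under both labels. Nothing is read from these counts, since the list was chosen with the same values known. With baicalin the next largest difference in the list was that of Entpd1, at -0.60 under the luminal label. That order depends on the 1 FPKM added. Without it, Adora2a was at 1.32 under the luminal label and Adora2b at -1.41 under the basal label, against -0.84 for Entpd1. The Adora2b value rests on 13 and 5 fragments, and its ratio interval includes 1.

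**Figure D2:**
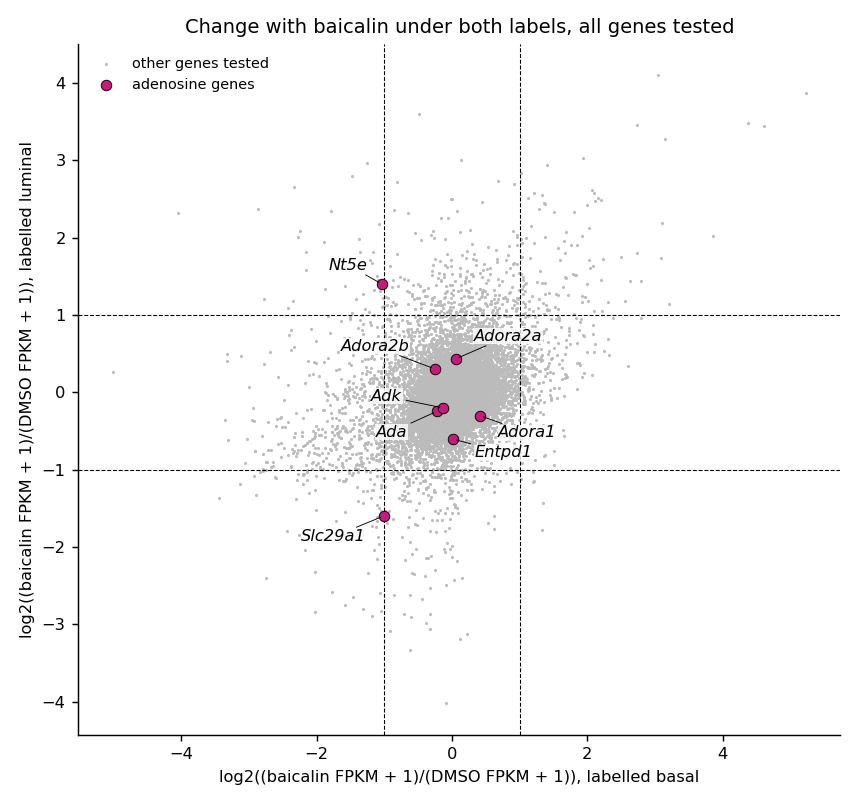
Change with baicalin in libraries labelled basal (horizontal axis) and labelled luminal (vertical axis), as log2 of the ratio of FPKM + 1, for the 17787 genes. Grey points are single genes, the 8 adenosine genes are in colour and the dashed lines mark differences of 1. Nt5e lies at -1.03 and 1.40, Slc29a1 at -1.002 and -1.60, and the other 6 lie inside the central square.

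Entpd1 (ENSMUSG00000048120, chr19:40612366-40741602, plus strand), which encodes CD39 upstream of CD73, differed between the labels. It was at 0.469 FPKM in the library labelled basal with DMSO and 0.486 FPKM with baicalin, from 52 and 55 fragments. In the libraries labelled luminal it was at 3.44 FPKM with DMSO and 1.92 FPKM with baicalin, from 371 and 221 fragments. Both libraries labelled luminal were above both labelled basal. The luminal label was 7.32 times the basal label with DMSO (5.46 to 9.98) and 3.95 times with baicalin (2.93 to 5.40), log2 differences of 1.59 and 0.97. With baicalin Entpd1 was at 0.558 times its DMSO level under the luminal label (0.471 to 0.661), and at 1.04 times under the basal label (0.696 to 1.54), where the interval includes 1.

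Between the labels, Entpd1 was with DMSO the 1 gene of 8 higher in the luminal label by more than 1, where 4.71% of all genes were, and Nt5e was the 1 gene of 8 lower, where 3.86% were. The transcripts of the 2 surface enzymes thus ran in opposite order between the labels with DMSO. The Nt5e level, which is per kilobase of exon, was 117 times the Entpd1 level in the library labelled basal with DMSO and 54.0 times with baicalin. In the libraries labelled luminal it was 4.22 times the Entpd1 level with DMSO and 20.8 times with baicalin. Nt5e was therefore the more abundant of the pair in every library.

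The transcripts of the 2 enzymes that remove adenosine inside the cell differed by less than 1 on the log2 scale in every comparison. Adk (ENSMUSG00000039197, chr14:21052574-21448569, plus strand) was at 5.07 FPKM in the library labelled basal with DMSO, 4.56 FPKM with baicalin, 6.96 FPKM in the library labelled luminal with DMSO and 5.92 FPKM with baicalin. Its baicalin level was 0.900 times that with DMSO under the basal label (0.816 to 0.993) and 0.850 times under the luminal label (0.781 to 0.925). Both intervals leave out 1, but they hold no spread between cultures. All neighbours in the order of the 4 levels differed beyond counting error. Adk was higher in the luminal label, by 1.37 times with DMSO (1.26 to 1.502) and 1.30 times with baicalin (1.18 to 1.42).

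Ada (ENSMUSG00000017697, chr2:163726584-163750239, minus strand) was at 2.29 FPKM in the library labelled basal with DMSO, 1.82 FPKM with baicalin, 1.70 FPKM in the library labelled luminal with DMSO and 1.28 FPKM with baicalin. These rest on 91, 74, 66 and 53 fragments. No neighbours in that order differed beyond counting error, and the baicalin ratios were 0.796 (0.578 to 1.09) and 0.753 (0.514 to 1.097) under the basal and luminal labels. The 2 ends of the order did, with the library labelled luminal with baicalin at 0.560 times the library labelled basal with DMSO (0.391 to 0.794). The Adk level was 2.21 and 2.50 times the Ada level in the libraries labelled basal with DMSO and baicalin, and 4.09 and 4.62 times in those labelled luminal. Summed over Ada and Adk, the transcript level stayed between 6.38 and 8.67 FPKM. The Nt5e transcript level was 7.44, 4.11, 1.67 and 5.53 times that sum in the order basal DMSO, basal baicalin, luminal DMSO and luminal baicalin. Transcript levels of different genes do not measure protein or enzyme activity, which were not examined here.

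**Figure D3:**
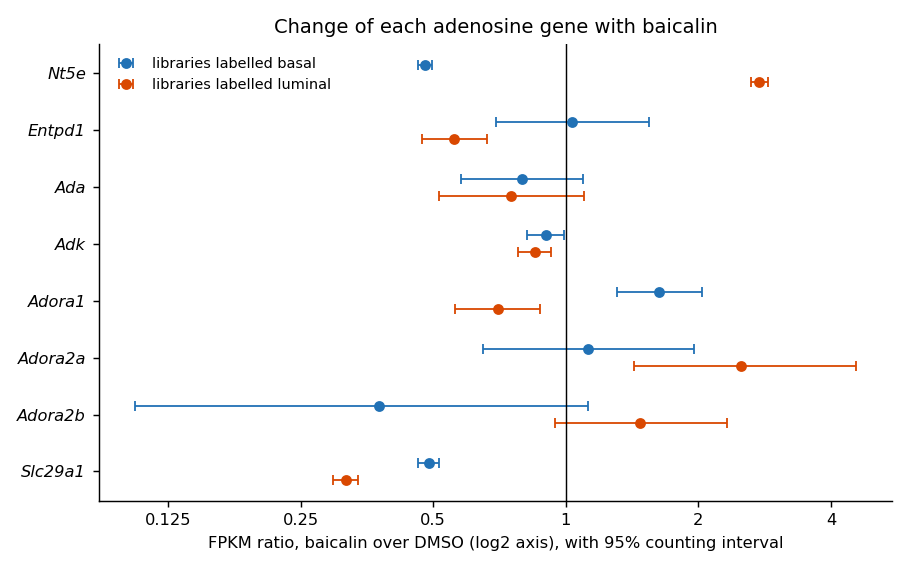
Ratio of the baicalin to the DMSO level of each adenosine gene on a log2 axis, with libraries labelled basal in blue and libraries labelled luminal in orange. Points are ratios of single libraries and bars are exact 95% counting intervals. Nt5e and Adora1 lie on opposite sides of 1 under the 2 labels, with both intervals leaving out 1. The points of Entpd1 and Adora2b also lie on opposite sides, but each gene has an interval that includes 1. Slc29a1 lies below 1 under both labels, as do Ada and Adk.

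The 3 receptors were low in every library, between 0.134 and 1.86 FPKM. Adora1 (ENSMUSG00000042429, chr1:134199223-134235431, minus strand), whose receptor couples to inhibitory G proteins, was at 1.14 FPKM in the library labelled basal with DMSO, 1.86 FPKM with baicalin, 1.70 FPKM in the library labelled luminal with DMSO and 1.19 FPKM with baicalin. These rest on 131, 218, 190 and 142 fragments. The 4 libraries formed 2 pairs that counting could not order, basal baicalin with luminal DMSO (ratio 0.913, 0.748 to 1.11) and luminal baicalin with basal DMSO (1.04, 0.816 to 1.33). With baicalin Adora1 was at 1.63 times its DMSO level under the basal label (1.31 to 2.04) and 0.701 times under the luminal label (0.560 to 0.875). The log2 differences, 0.42 and -0.30, were small and in the reverse directions to those of Nt5e. Mybph, a gene on the opposite strand, shares 1162 of the 5785 exon bases of Adora1 and was at 0.519, 0.847, 0.399 and 1.12 FPKM in the 4 libraries in the order used above. The paper names a stranded library kit. Whether strand was used in the counting is not stated in the sources read here, so the Adora1 values are uncertain.

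Adora2a (ENSMUSG00000020178, chr10:75316877-75334784, plus strand), whose receptor couples to the stimulatory G protein, was at 0.444 and 0.499 FPKM in the libraries labelled basal with DMSO and baicalin, from 27 and 31 fragments. In the libraries labelled luminal it was at 0.304 FPKM with DMSO and 0.759 FPKM with baicalin, from 18 and 48 fragments. With baicalin it was at 2.50 times its DMSO level under the luminal label (1.43 to 4.57) and 1.12 times under the basal label (0.649 to 1.96). The ratio of the 2 ratios was 2.22 with a wide interval (1.05 to 4.70). At 18 to 48 fragments a library, differences between the labels were not detectable, at 0.684 times with DMSO (0.355 to 1.29) and 1.52 times with baicalin (0.949 to 2.47).

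Adora2b (ENSMUSG00000018500, chr11:62248984-62266453, plus strand), whose receptor has a low affinity for adenosine, was at 0.355 FPKM in the library labelled basal with DMSO and 0.134 FPKM with baicalin, from 13 and 5 fragments. In the libraries labelled luminal it was at 0.980 FPKM with DMSO and 1.44 FPKM with baicalin, from 35 and 55 fragments. Both libraries labelled luminal were above both labelled basal. The luminal label was 2.76 times the basal label with DMSO (1.43 to 5.69) and 10.8 times with baicalin (4.36 to 34.6). Neither baicalin ratio was distinguishable from 1 at this depth, with 0.376 (0.105 to 1.13) under the basal label and 1.47 (0.947 to 2.32) under the luminal label. With baicalin, Adora2b was the 1 gene of 8 higher in the luminal label by more than 1, where 5.24% of all genes were, and 0 of 8 were lower, where 2.99% were. Entpd1 lay just outside, at 0.97.

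Summed over the 3 receptors, the level was 1.94, 2.49, 2.98 and 3.39 FPKM in the order basal DMSO, basal baicalin, luminal DMSO and luminal baicalin. Adora1 made up 58.8%, 74.6%, 56.9% and 35.0% of that sum. Adora2b made up 18.3%, 5.36%, 32.9% and 42.6%, and Adora2a the remaining 22.9%, 20.0%, 10.2% and 22.4%. Adora1 was the most abundant of the 3 transcripts in both libraries labelled basal and in the library labelled luminal with DMSO. In the library labelled luminal with baicalin the counting intervals of Adora1 (1.001 to 1.40 FPKM) and Adora2b (1.09 to 1.88 FPKM) overlapped. The reads that Adora1 may share with Mybph limit these shares and this order too. Adora3, the remaining adenosine receptor gene, was listed at 0 in 3 libraries and had 1 fragment in the library labelled luminal with baicalin.

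The 4 genes most like Nt5e in their pattern over the 4 libraries were found among 8043 other genes with a mean of at least 5 FPKM, by the root mean square difference of log2(FPKM + 1) after each gene was centred on its own mean. They were Aldh1a3 at 0.16, Anxa1 at 0.17, Rab32 at 0.21 and Sult2b1 at 0.21. Aldh1a3, a retinaldehyde dehydrogenase used as a marker of luminal progenitors, was at 173, 97.8, 46.4 and 163 FPKM in the order basal DMSO, basal baicalin, luminal DMSO and luminal baicalin. Anxa1, the phospholipid-binding annexin A1, was at 930, 516, 255 and 561 FPKM. Rab32, a small GTPase, was at 28.1, 11.6, 9.19 and 18.1 FPKM. Like Nt5e, all 3 were highest in the library labelled basal with DMSO and lowest in the library labelled luminal with DMSO. A likeness over 4 libraries describes these values and carries no test.

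**Figure D4:**
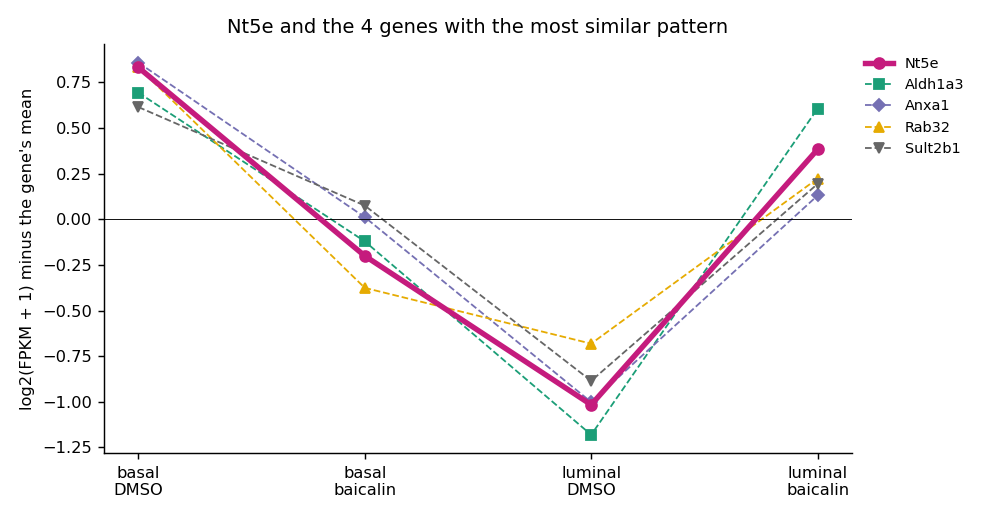
Nt5e and the 4 genes with the most similar pattern, as log2(FPKM + 1) minus the mean of each gene over the 4 libraries (vertical axis) in each library (horizontal axis). Points are single libraries and lines join the points of a gene. All 5 genes are highest in the library labelled basal with DMSO and lowest in the library labelled luminal with DMSO.

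For Slc29a1 the 3 most similar genes were Gm10705 at 0.08, Gpd1l at 0.16 and Tspan12 at 0.18. Gpd1l, related to glycerol-3-phosphate dehydrogenase, was at 8.73, 4.13, 10.9 and 3.12 FPKM in the same order, and Tspan12, a tetraspanin, at 9.66, 4.17, 9.83 and 3.60 FPKM. Those of Entpd1 were Slpi, Acvr2a and Ldhb, those of Ada were Hmces, C2cd3 and Dlg3, and those of Adk were Ppp1r12a, Ndufa4 and Lrp6. Adora1 was nearest to Mpst, Rundc1 and Nsmf, and Adora2b to Dgka, Pcyox1 and Cav1. The flatter a gene on this scale, the smaller these distances can be, as with 0.01 for Adk and Ppp1r12a. The 1 FPKM added flattens low genes, so Entpd1 and Adora2b lay near genes with much smaller ratios of FPKM. With DMSO, Slpi, at 0.08 from Entpd1, was at 416 FPKM under the basal label and 1137 FPKM under the luminal label. Entpd1 itself was 7.32 times as high under the luminal label. With baicalin, Dgka was at 10.1 and 22.1 FPKM, while Adora2b was 10.8 times as high under the luminal label.

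Among the 40 genes that shared the opposite directions of Nt5e, Nt5e ranked 9th by mean FPKM. The genes ranked above it, named here after their values were seen, were Krt17, Sfn, Krt6a, Dmkn, Tnc, Dsg3, Krt16 and Ly6a. Krt6a, a keratin of stressed epithelium whose close copy Krt6b may share its reads, was at 67.3, 3.14, 107 and 539 FPKM in the order basal DMSO, basal baicalin, luminal DMSO and luminal baicalin. Ly6a, which encodes the surface antigen Sca1, was at 50.6, 23.2, 28.0 and 78.1 FPKM. Both were highest in the library labelled luminal with baicalin, unlike Nt5e. The opposite quadrant, higher under the basal label and lower under the luminal label, held 6 genes and none of the 8.

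Cell type markers also moved between the libraries. With baicalin the summed basal markers were lower under the basal label (1761 to 479 FPKM) and higher under the luminal label (5404 to 7199 FPKM), the same directions as Nt5e. Those sums were mostly the keratins Krt14, Krt5 and Krt17. By gene, 1 of the 10 basal markers was higher and 9 lower under the basal label, and 5 were higher and 5 lower under the luminal label. The median log2 differences were -0.65 and -0.16. Between the labels, the sum and Nt5e were both higher under the luminal label with baicalin. With DMSO they ran in opposite order, the sum at 1761 and 5404 FPKM and Nt5e at 54.8 and 14.5 FPKM under the basal and luminal labels. The summed alveolar progenitor markers, which include Aldh1a3, went from 362 to 228 FPKM under the basal label and from 116 to 206 FPKM under the luminal label. Of 7 markers in that list with values above 0 in all libraries, 0 were higher under the basal label and 2 under the luminal label. Under the luminal label 5 of the 7 were lower, and Aldh1a3 went from 46.4 to 163 FPKM. The summed hormone-sensing markers were 124, 187, 74.7 and 121 FPKM in the order basal DMSO, basal baicalin, luminal DMSO and luminal baicalin. Those sums were mostly Areg and Ly6a, and 5 of 7 markers were lower with baicalin under each label, with medians of -0.12 and -0.91. Fibroblast markers summed to 7.06, 2.66, 15.9 and 12.5 FPKM. With DMSO, 2 of the 8 were higher in the luminal label, Pdgfra at 6.30 FPKM and Fbln1 at 5.50 FPKM, and 6 were lower, with a median of -0.18. Immune markers summed to 10.5, 3.12, 1.57 and 4.25 FPKM, with the pan-leukocyte gene Ptprc at no more than 0.0138 FPKM and 1, 4, 2 and 2 of the 8 immune markers at 0. Endothelial markers summed to 1.71, 2.19, 2.63 and 4.75 FPKM, and 0 of the 8 fibroblast and 0 of the 8 endothelial markers were at 0. The part of these marker shifts in the levels of Nt5e and the other 7 genes was not tested.

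Of the other genes of ATP release and surface nucleotide breakdown, 13 of 15 had values above 0 in all libraries. With baicalin 0 were higher and 2 lower by more than 1 under the basal label, where 2.15% and 3.33% of all genes were. Under the luminal label 1 was higher and 2 lower, where 2.37% and 1.59% of all genes were. The medians were -0.06 and 0.31 beside 0.01 and -0.02 over all genes. Both list medians were 0 without the filter on low values. Gja1, the connexin 43 hemichannel through which ATP can leave cells, went from 59.8 to 19.7 FPKM under the basal label and from 33.5 to 33.2 FPKM under the luminal label. Enpp1 and Enpp3, ectoenzymes that cut ATP directly to AMP, were lower with baicalin under both labels, Enpp3 at 0.207 (0.164 to 0.260) and 0.366 (0.326 to 0.411) times its DMSO level. Enpp1 was at 4.67 and 2.64 FPKM in the libraries labelled basal, and at 28.7 and 12.6 FPKM in those labelled luminal. Entpd3, an ecto-ATPase related to CD39, was higher with baicalin, from 1.07 to 2.21 FPKM under the basal label and from 0.757 to 3.21 FPKM under the luminal label.

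Of 25 further genes listed for adenosine and AMP metabolism inside the cell, 23 had values above 0 in all libraries. Among them was Dpp4, which encodes a surface peptidase and not an enzyme of that metabolism, at no more than 0.147 FPKM. Under each label 2 of the 23 were higher and 0 lower by more than 1, and they were the same 2 genes. Over all genes, 2.15% were higher and 3.33% lower under the basal label, and 2.37% and 1.59% under the luminal label. The medians of the list were -0.07 under the basal label and 0.08 under the luminal label. Ampd3, an AMP deaminase that turns AMP to IMP and so competes with AMP breakdown to adenosine, went from 9.61 to 47.9 FPKM under the basal label, a ratio of 4.98 (4.66 to 5.32). Under the luminal label it went from 2.40 to 18.1 FPKM, a ratio of 7.56 (6.64 to 8.63). Xdh, the xanthine oxidoreductase at the end of purine breakdown and a protein of the milk fat globule, went from 17.1 to 35.6 FPKM and from 9.23 to 28.5 FPKM. Ahcy, which splits S-adenosylhomocysteine to adenosine and homocysteine, was at 0.691 (0.645 to 0.739) and 0.638 (0.607 to 0.670) times its DMSO level under the basal and luminal labels.

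Of the other nucleoside carriers, 4 of 6 had values above 0 in all libraries. With baicalin 0 passed a difference of 1 in either direction, with medians of 0.11 and 0.18. Over all genes, 2.15% were higher and 3.33% lower under the basal label, and 2.37% and 1.59% under the luminal label. Slc29a2, the second equilibrative transporter, was at 3.34 and 3.57 FPKM in the libraries labelled basal and at 1.42 and 1.90 FPKM in those labelled luminal. Slc29a1 was at 4.13 times the summed level of Slc29a2, Slc29a3 and Slc29a4 with DMSO and 1.81 times with baicalin under the basal label. Under the luminal label it was at 4.95 times that sum with DMSO and 1.42 times with baicalin. The sum itself stayed between 9.46 and 12.8 FPKM.

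Of 15 genes for P2 receptors, which bind ATP and other nucleotides, and Adora3, 8 had values above 0 in all libraries. With baicalin 1 was higher by more than 1 under the basal label, where 2.15% of all genes were, and 0 were lower, where 3.33% were. Under the luminal label 0 passed in either direction, where 2.37% of all genes were higher and 1.59% lower. The medians were 0.21 and 0.03. The 1 gene past the threshold was P2rx7, the ATP-gated channel. It went from 8.22 to 18.8 FPKM under the basal label, a ratio of 2.29 (2.12 to 2.47). Under the luminal label it went from 6.87 to 4.51 FPKM, a ratio of 0.656 (0.588 to 0.732).

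Downstream of the receptors, 29 of 30 genes of the cyclic AMP arm were above 0 in all libraries. Under the basal label 0 were higher and 2 lower by more than 1, where 2.15% and 3.33% of all genes were. Under the luminal label 0 passed in either direction, where 2.37% of all genes were higher and 1.59% lower. The medians were -0.03 and -0.04. The 2 lower genes were Adcy7, an adenylyl cyclase, which went from 2.06 to 0.373 FPKM, and Gnai1, an inhibitory G protein subunit, which went from 2.44 to 0.676 FPKM. The related inhibitory subunits Gnai2 and Gnai3, named here after their values were seen, were far more abundant, and went from 102 to 83.5 FPKM and from 79.8 to 68.0 FPKM. Gnas, the stimulatory subunit used by the Adora2a and Adora2b receptors, lay between 38.0 and 45.0 FPKM in the 4 libraries. Of 12 genes known to be induced by cyclic AMP, 11 were above 0 in all libraries, with medians of -0.24 under the basal label and -0.06 under the luminal label. Among these, 1 was higher and 1 lower by more than 1 under the basal label, where 2.15% and 3.33% of all genes were. Under the luminal label 0 were higher and 1 lower, where 2.37% and 1.59% of all genes were. Nr4a1, an orphan nuclear receptor, was at 0.464 (0.405 to 0.531) and 0.277 (0.247 to 0.310) times its DMSO level, and Nr4a2 went from 12.96 to 5.51 FPKM under the basal label. Areg, the EGF receptor ligand amphiregulin, was higher with baicalin under both labels, with log2 differences of 1.31 and 0.78. Counted by direction alone, 4 of the 11 were higher and 7 lower under the basal label, and 3 higher and 8 lower under the luminal label.

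**Figure D5:**
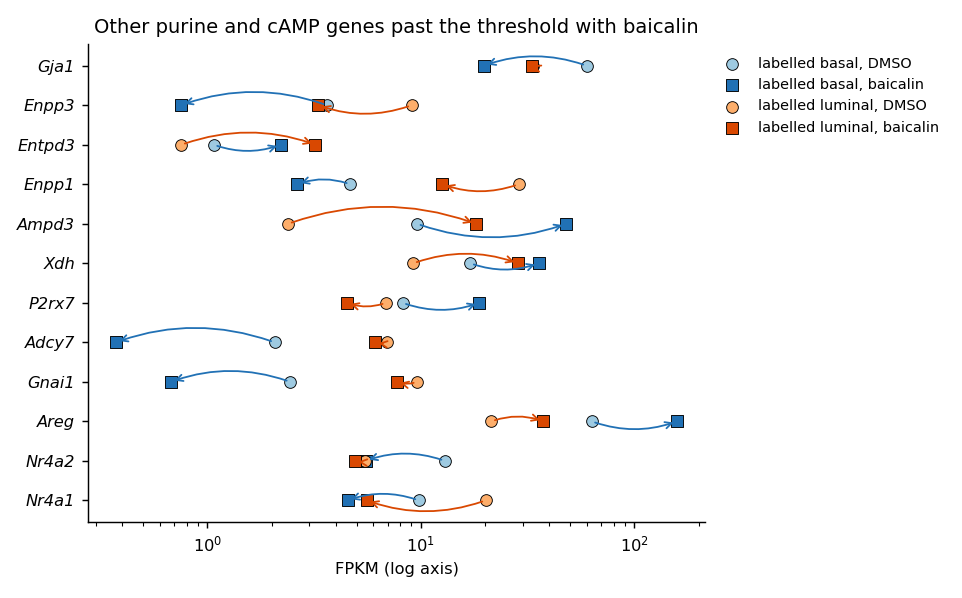
Level of the purine and cyclic AMP genes outside the 8 that passed a difference of 1 on the log2 scale with baicalin under at least 1 label, in FPKM on a log axis. Circles are DMSO libraries, squares baicalin libraries, and arrows run from DMSO to baicalin, blue for the basal label and orange for the luminal label. Ampd3 and Xdh move right under both labels, Enpp3 and Enpp1 move left under both, and P2rx7 moves right under the basal label and left under the luminal label.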

How the data were processed

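The data are 4 RNA libraries, 1 per group, of mouse mammary cells grown in 3D, and groups were taken from the labels. The authors mapped reads to GRCm38 with HISAT2, summarised them per gene by featureCounts (Ensembl release 94), and deposited FPKM, the fragments of a gene per kilobase of exon, scaled to library depth. The submitters' processing notes also list Bowtie 0.12.2 and mm8, with no role given. The libraries were made with a stranded kit, but whether the counting used strand is not stated in the sources read here.

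Gene models of GENCODE mouse release 21 (GRCm38) supplied positions, overlaps and the exon lengths of 54409 genes. Since FPKM times exon length comes in whole multiples of what 1 fragment is worth, library depth could be recovered, at 19356094 to 20648781 fragments. Of genes with at most 30 fragments, 98.6% to 98.8% came out whole within 0.05. On 1 kilobase, 1 fragment was worth about 0.05 FPKM. Scripts were tested on simulated data in which 200 genes were changed 8-fold.

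Differences are log2((FPKM + 1)/(FPKM + 1)) over the 17787 genes above 0 in all 4 libraries, after the study's filter. The pseudocount understates the change of low genes. The threshold was 1. Without replicates no test was made. Ratio intervals are exact Clopper-Pearson 95% intervals on fragments. Results were recomputed with a pseudocount of 0.1 or none, TPM, centring on the median, no filter, a minimum of 1 FPKM in either library compared, a threshold of 2, and protein-coding genes.

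The 8 genes, the 6 pathway lists of 103 entries and the 7 marker lists were chosen with earlier results of these data known. Genes named from the lists were those past the threshold that reached 1 FPKM in either library compared, at most 4 per list and comparison, and the first gene of each list. Genes alike in pattern were the 5 nearest to Nt5e, of which 1 is not reported here, and the 3 nearest to each other gene that reached 1 FPKM. Near-identical stretches in other genes were searched at 95% identity over at least 200 bases. Only Mybph was found, for Adora1, whose exons it overlaps on the opposite strand. Promoters came from RefSeq on GRCm38.p6. Computation used scipy 1.17.1, pandas 2.3.3 and numpy 2.4.6 under Python 3.11.15, and plots used matplotlib 3.10.9. Other treatments and assays of the study were not analysed here.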

Additional observations from a re-analysis of the deposited data

Results flagged for a closer look

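Among the 8 genes and the 12 list genes named for passing the threshold, 3 changed with baicalin in opposite directions under the 2 labels, with both ratio intervals leaving out 1. Such changes were not limited to these 3. List genes below the threshold, such as Fos with ratios of 1.49 and 0.499, also showed them, as did marker genes and the 40 and 6 genes past the threshold in opposite directions. The log2 change under the luminal label minus that under the basal label was 2.43 for Nt5e, -0.72 for Adora1 and -1.62 for P2rx7. With 1 library per group the difference was not tested against a spread between cultures. Adora1 changed by less than 1 on the log2 scale under each label, and its exons overlap those of Mybph.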

How the results depend on the processing

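The log2 changes of the 8 genes past the threshold kept their direction under all alternatives run. With a pseudocount of 0.1 FPKM or none, Adora2a also passed the threshold with baicalin under the luminal label, where 2 of the 8 were then higher. With none, Adora2b also passed it under the basal label, where 3 were then lower. Between labels, 2 of the 8 (Entpd1 and Adora2b) were higher with DMSO under a pseudocount of 0.1 or none, and the same 2 were higher with baicalin under a pseudocount of 0.1, none, TPM or centring on the median. With a threshold of 2, 0 of the 8 passed in any comparison. With a pseudocount of 0.1 or none, and with TPM, more of all genes passed the threshold too, as given next. Nothing is read from these counts of members.

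Over all genes, the numbers past the threshold are given in the order basal higher, basal lower, luminal higher, luminal lower with baicalin, then luminal label higher and lower with DMSO, then with baicalin. In the main setting they were 383, 592, 421, 282, 837, 686, 932 and 531 of the 17787 genes. They were 1123, 1302, 1052, 913, 2027, 1467, 2030 and 1327 with a pseudocount of 0.1, and 1693, 2054, 1559, 1537, 2872, 1926, 2632 and 2003 with none. They were 696, 1002, 718, 578, 1306, 1279, 1439 and 1083 with TPM, and 41, 132, 60, 46, 185, 150, 242 and 59 with a threshold of 2. A threshold of 2 is stricter, and a smaller pseudocount shrinks each difference less, so those counts follow from the settings. The values of a library summed to between 275042 and 296479 FPKM, and TPM rescales them to a larger sum. The same 1 added therefore shrinks differences less with TPM.

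The 24 list medians shifted by at most 0.99 over 144 alternative values, of which 6 changed sign or reached 0. Among these were both baicalin medians of the ATP release list, 0 without the filter, and the luminal median of the P2 receptor list, -0.08 without a pseudocount. Low counts limit Adora2a and Adora2b, at 5 to 55 fragments. No paired analysis was possible because each group has 1 library and the labels give no replicate numbers, and for the same reason leaving out a library was not run.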
